A study of Mus musculus with 106 samples.

Results

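Inguinal subcutaneous fat (ingSAT), the white fat depot of the mouse groin, was compared between mice housed at 10 °C and mice housed at 22 °C. The comparison takes the 6 ingSAT libraries of the table of 8 tissues, 3 at 10 °C and 3 at 22 °C, out of 106 libraries in the whole series, and runs across all 21647 genes of that table. The 10 °C libraries carry the label CE and the 22 °C libraries the label RT, each with replicate numbers 1 to 3. All mice were wild-type males of strain C57BL/6 (C57BL/6J in the methods), labelled week 11 at sampling and 8 weeks old at the start. Mice of the cold group had first been kept at 18 and then 14 °C, for 5 days each, and spent 2 weeks at 10 °C, so the comparison is between a room-temperature group and a group that had gone through gradual cooling. Each library is a pool of RNA from 2 mice, 6 mice a group, so the spread between libraries is a spread between pools. Titles of the libraries carry the mark re-used.

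White adipocytes store triglyceride in 1 large droplet, whereas brown adipocytes burn fatty acids in many mitochondria whose inner membrane holds uncoupling protein 1 (Ucp1), which releases the proton gradient as heat. Noradrenaline from sympathetic nerves acts in the cold on beta-adrenergic receptors of the adipocyte, raises cyclic AMP, frees fatty acids from the droplets and turns on thermogenic genes. In ingSAT of cold-housed mice, groups of multilocular adipocytes with Ucp1, called beige or brite adipocytes, appear among the white ones. Interscapular brown fat (iBAT) is the classical brown depot, and perigonadal visceral fat (pgVAT) is a white depot where such cells are scarce.

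The promoters of 4 genes with large rises at 10 °C are shown because these genes belong to that programme, followed by the promoters of 2 respiratory chain subunits that rose. Each run is 250 bases before to 50 bases after a start site of RefSeq on GRCm38.p6, 5′ to 3′ on the strand of the gene, and capitals mark matches to any of 8 motifs searched on both strands.
Ucp1 (chr8:83290098-83290397, plus strand): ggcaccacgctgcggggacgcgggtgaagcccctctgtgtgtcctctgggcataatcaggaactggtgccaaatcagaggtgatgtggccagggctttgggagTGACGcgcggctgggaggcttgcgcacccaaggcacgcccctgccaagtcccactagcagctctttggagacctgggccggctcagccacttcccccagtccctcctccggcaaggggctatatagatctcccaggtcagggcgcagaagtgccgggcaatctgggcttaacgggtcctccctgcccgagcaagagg
Acot11 (chr4:106804958-106805257, minus strand): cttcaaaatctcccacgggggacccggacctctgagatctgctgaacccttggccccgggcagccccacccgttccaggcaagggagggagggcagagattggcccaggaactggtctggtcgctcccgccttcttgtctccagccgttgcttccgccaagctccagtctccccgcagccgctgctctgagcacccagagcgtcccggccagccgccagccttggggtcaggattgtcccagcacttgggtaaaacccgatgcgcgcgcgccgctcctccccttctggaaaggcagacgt
Fabp3 (chr4:130308488-130308787, plus strand): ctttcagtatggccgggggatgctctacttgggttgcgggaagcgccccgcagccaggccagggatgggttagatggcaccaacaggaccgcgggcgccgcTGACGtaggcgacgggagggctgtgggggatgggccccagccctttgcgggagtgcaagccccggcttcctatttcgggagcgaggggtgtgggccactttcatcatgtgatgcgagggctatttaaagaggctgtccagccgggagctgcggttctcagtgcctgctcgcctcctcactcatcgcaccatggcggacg
Cox7a1 (chr7:30183921-30184220, plus strand): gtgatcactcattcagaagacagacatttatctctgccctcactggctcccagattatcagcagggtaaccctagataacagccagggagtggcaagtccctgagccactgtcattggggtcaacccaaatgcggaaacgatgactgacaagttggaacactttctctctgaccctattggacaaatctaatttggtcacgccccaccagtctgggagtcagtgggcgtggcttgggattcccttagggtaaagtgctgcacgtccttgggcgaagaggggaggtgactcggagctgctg
Sdhd (chr9:50603800-50604099, minus strand): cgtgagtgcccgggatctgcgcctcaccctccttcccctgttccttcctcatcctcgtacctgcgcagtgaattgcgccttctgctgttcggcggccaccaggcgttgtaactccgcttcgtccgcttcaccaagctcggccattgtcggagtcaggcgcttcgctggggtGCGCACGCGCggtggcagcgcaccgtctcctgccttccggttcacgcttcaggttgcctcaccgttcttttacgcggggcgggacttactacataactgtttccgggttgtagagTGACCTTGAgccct
Ndufa5 (chr6:24527477-24527776, minus strand): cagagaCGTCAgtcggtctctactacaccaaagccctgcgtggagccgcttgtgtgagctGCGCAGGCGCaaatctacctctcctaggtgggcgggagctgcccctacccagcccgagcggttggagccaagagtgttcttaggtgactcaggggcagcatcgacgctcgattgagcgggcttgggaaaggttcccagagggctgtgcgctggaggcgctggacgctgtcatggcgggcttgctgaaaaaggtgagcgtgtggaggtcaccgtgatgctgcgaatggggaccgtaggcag
The 8 motifs were the cyclic AMP response element (TGACGTCA), its short core (TGACG), the direct repeat of PPAR and RXR (AGGTCA and AGGTCA, 1 base apart), the site of estrogen-related receptors (TCAAGGTCA), a core of the nuclear respiratory factor 1 site (GCGCA and GCGC, 1 base apart), the palindrome of EBF factors (TCCC and GGGA, 2 bases apart), the E-box (CACGTG) and the sterol regulatory element. The full cyclic AMP response element contains the short core, so its matches count under both. Ucp1 and Fabp3 hold 1 short core of the cyclic AMP response element each, and neither Acot11 nor Cox7a1 holds any of the 8 motifs in this window. The short core stood in 40.0% of the 15 promoters found for thermogenic genes called higher, against 30.3% of the 10917 promoters found for the 13982 genes tested and 21% of all 27025 promoters in the table. The nuclear respiratory factor 1 core stood in 24.5% of the 53 promoters found for subunits of the respiratory chain and ATP synthase that were called higher, against 9.76% of the promoters of genes tested and 4.78% of all promoters, and the last 2 promoters shown were picked for holding it. Sdhd also holds the site of estrogen-related receptors and Ndufa5 the short core. The nuclear respiratory factor core stood in none of the 15 thermogenic promoters. These matches describe the letters of a 300-base window and show no binding.

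The 6 libraries held 10960682 to 14442801 counts, and 13982 genes with an average log2 CPM (counts scaled to a library of fixed size) above 0 were tested. Temperature did not separate the libraries on the first principal component of log2 CPM (45.6% of the variance), where 22 °C replicate 3 (6.37) lay between 10 °C replicate 1 (-5.34) and 10 °C replicate 3 (32.2). On the second component (27.8%), 10 °C replicate 1 stood apart at -62.3. Markers of other tissues also differed between libraries. The summed level of 20 ileum markers was 731 CPM in 10 °C replicate 1 and 57.1 to 222 CPM in the other libraries, and its trace came to 1.02% of the level in ileum at 10 °C. The sum of 12 skeletal muscle markers ran from 1320 to 3270 CPM at 22 °C and was 1450, 31.5 and 2020 CPM in the 10 °C replicates 1 to 3. B cell markers summed to 73.4, 163 and 409 CPM at 22 °C and to 27.6, 790 and 513 CPM at 10 °C. Adipocyte markers summed to 38700 to 45400 CPM at 22 °C and 35700 to 44600 CPM at 10 °C, so the labelled tissue bore its markers in every library. None of the tested members of these 4 lists was called, the groups overlapped in each sum, and the part of these cells in the results was not tested. The sum of 10 liver markers was lower at 10 °C without overlap (5800 to 8840 CPM against 2780 to 4460 CPM), with none of 4 tested members called. It was almost wholly Cyp2e1 and Trf, which adipocytes also express, while Alb had 25.4 to 57.1 CPM at 22 °C and 30 to 61.4 CPM at 10 °C. In bulk tissue, fewer cells of a type and less RNA per cell cannot be told apart.

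At 10 °C, 644 genes were called higher and 406 lower at a Benjamini-Hochberg adjusted p under 0.05 (quasi-likelihood fit of edgeR), which is 4.61% and 2.90% of the genes tested, or 7.51% in either direction. At the limits of the study, an unadjusted p of at most 0.05 with a fold change above 1.5, the counts were 1007 higher (7.20%) and 1278 lower (9.14%). The groups did not overlap for 2288 genes that were higher (16.4%) and 2292 that were lower (16.4%). The split depended on the scaling. The higher genes were 61.3% of those called with TMM scaling and 49.8% with library size only (611 higher, 617 lower). The calls also depended on single libraries. Without 22 °C replicate 3 the test called 2050 genes higher and 1749 lower, without 10 °C replicate 3 it called 53 and 4, and leaving out any other library gave 182 to 299 higher and 36 to 180 lower. Counts of list members are therefore given below with the counts without these 2 libraries, which gave the lowest and the highest counts of most lists. Apart from the study's own lists, the lists and their members were chosen with earlier results of these data known. Their counts describe the values and are no independent test.

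**Figure D1:**
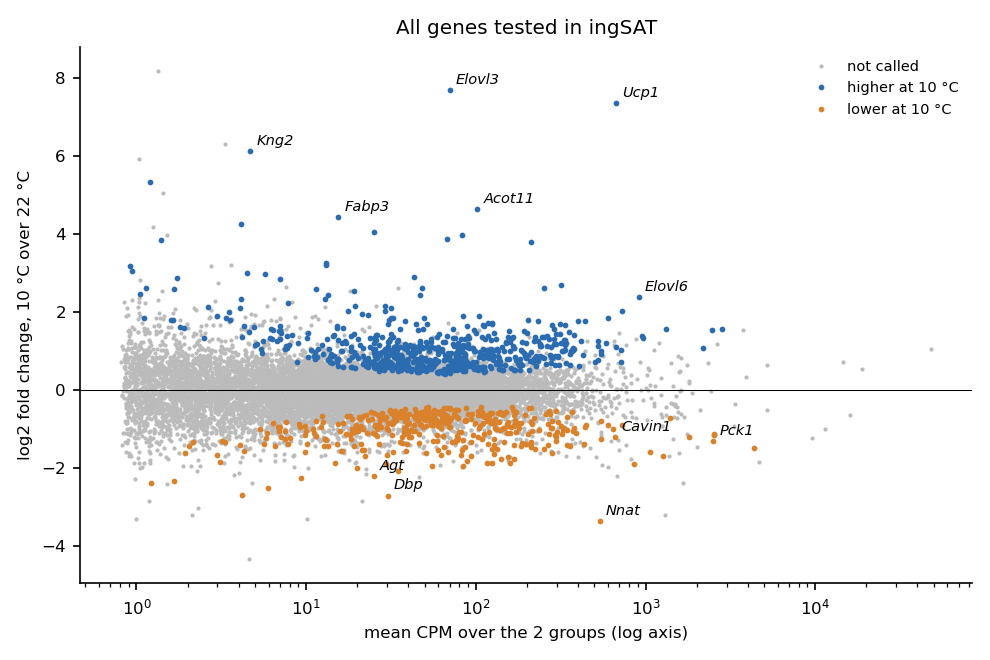
Each point is 1 of the 13982 genes tested in ingSAT, with its mean CPM over both groups (log axis) against its log2 fold change, 10 °C over 22 °C. Blue points were called higher (644) and orange points lower (406). Elovl3 and Ucp1 lie farthest up among the called genes, and Nnat lies farthest down.

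Thermogenic genes rose the most. Ucp1 (ENSMUSG00000031710, chr8:83290352-83298452, plus strand, GRCm38) had 15.6, 6.81 and 2.51 CPM in the 22 °C replicates and 1121, 1593 and 1277 CPM in the 10 °C replicates. Every cold library was far above every control, and the log2 fold change was 7.35 ± 0.69 (SE, n = 3 and 3, edgeR adjusted p = 0.0046). Elovl3 (ENSMUSG00000038754, chr19:46131897-46135694, plus strand), which elongates very long fatty acids and is a cold-induced gene of brown fat, had 1.34, 0.71 and 0.13 CPM at 22 °C and 120, 169 and 128 CPM at 10 °C. Its log2 fold change of 7.68 ± 0.49 was the largest of all called genes (adjusted p = 0.00216). Both genes were lowest in 22 °C replicate 3, which held 38 reads of Ucp1 and 2 of Elovl3.

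Of the 24 genes in the list of the thermogenic core, 20 were called higher and none lower (15 higher without 10 °C replicate 3 and 22 without 22 °C replicate 3). All 24 had positive log2 fold changes, with a median of 2.51, beside -0.0095 over all genes tested. The list was chosen with earlier results of these data known, which can favour genes that rose. The study's own thermogenic list, taken up below, had a median of 0.15 over 142 tested genes. Cox7a1 and Cox8b encode the isoforms of cytochrome c oxidase subunits found in heart, muscle and brown fat. Cox7a1 had 9.56, 11.8 and 8.71 CPM at 22 °C and 129, 187 and 153 CPM at 10 °C, a log2 fold change of 3.96 ± 0.20 (adjusted p = 0.000931). Cox8b had 68.2, 75.6 and 70.6 CPM at 22 °C and 407, 474 and 424 CPM at 10 °C, a rise of 2.6 ± 0.13 on the log2 scale. Both are expressed in muscle as well. Muscle markers summed to 1320 to 3270 CPM at 22 °C and to 1450, 31.5 and 2020 CPM in the 10 °C replicates 1 to 3. The part of muscle RNA in the levels of these 2 genes was not tested.

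Enzymes and carriers of fatty acids made up much of the rest of the list. Acot11, a thioesterase for long-chain acyl-CoA that is induced in cold brown fat, had 9.65, 11.4 and 2.97 CPM at 22 °C and 205, 202 and 182 CPM at 10 °C (log2 fold change 4.63 ± 0.46). Fabp3, the fatty acid-binding protein of heart, had 1.24, 1.70 and 1.12 CPM at 22 °C and 27.9, 28.9 and 31.8 CPM at 10 °C (4.43 ± 0.21). These groups were separated by more than 10 times. Cpt1b, the muscle and brown fat form of the enzyme that lets fatty acids into mitochondria, had 1.24, 1.28 and 1.32 CPM at 22 °C and 8.95, 11.3 and 10.1 CPM at 10 °C. Cpt1a, the liver form, went the other way, with 104, 102 and 63.6 CPM at 22 °C and 41.4, 37.4 and 38.6 CPM at 10 °C (-1.19, adjusted p = 0.0195). Cpt1b rose by 2.97 ± 0.22 on the log2 scale and was called in all 6 fits that left out a library. Gk, which makes glycerol 3-phosphate from glycerol, had 13.3, 13.3 and 13.9 CPM at 22 °C and 67.2, 95.0 and 86.6 CPM at 10 °C.

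Dio2, Cidea and Ppargc1a rose too. Dio2, which turns thyroxine into its active form, had 3.35, 3.19 and 0.99 CPM at 22 °C and 23, 29.2 and 19.2 CPM at 10 °C (3.26 ± 0.44, adjusted p = 0.011). Cidea, a lipid droplet protein of brown adipocytes, had 99.1, 101 and 57.3 CPM at 22 °C and 558, 577 and 518 CPM at 10 °C (2.69 ± 0.24). Ppargc1a, the coactivator of mitochondrial biogenesis, had 10.3, 13.7 and 14.9 CPM at 22 °C and 23.8, 24.5 and 28.2 CPM at 10 °C. The groups of all 3 genes were apart, and the rise of Ppargc1a was 0.97 ± 0.18 (adjusted p = 0.0253), called in 1 of the 6 fits that left out a library. Of the 24 genes, the 4 that were not called were Sorl1, Kcnk3, Slc36a2 and Eva1a, with log2 fold changes of 0.83, 0.83, 0.79 and 0.55.

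**Figure D2:**
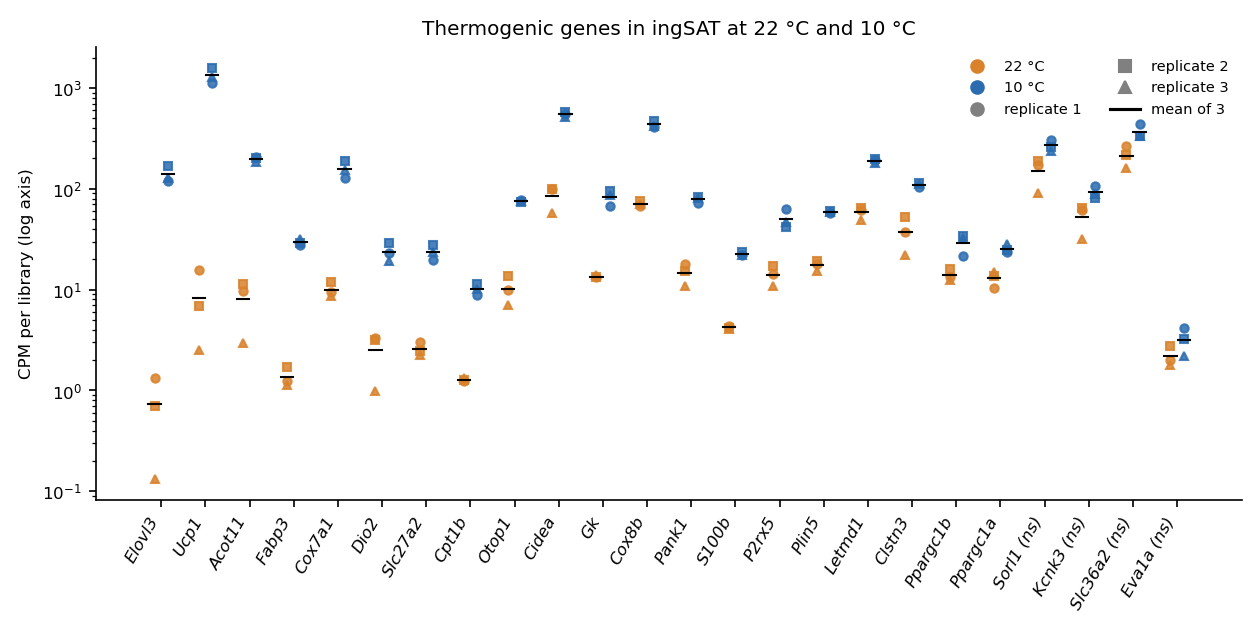
CPM of the 24 genes of the thermogenic core in each ingSAT library (log axis), with 22 °C in orange, 10 °C in blue, a marker shape for each replicate and a black line at the mean of 3. Genes run from the largest log2 fold change (Elovl3, 7.68) to the smallest (Eva1a, 0.55), and "ns" marks the 4 that were not called. The 2 colours overlap in Eva1a alone.

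Transcription regulators of brown and beige fat were called higher in part. Of 23 tested genes of brown and beige transcription regulators, 7 were called higher and 1 lower, with a median log2 fold change of 0.00 (none either way without 10 °C replicate 3, 7 higher and 4 lower without 22 °C replicate 3). The groups did not overlap for 8 that were higher and 6 that were lower, against 16.4% of all genes in each direction. Of all genes tested, 4.61% were called higher and 2.90% lower. A list this short may hold 1 lower call at that share. The 7 were the coactivators Ppargc1a and Ppargc1b, the nuclear receptors Esrra, Esrrg and Ppara, Gabpa and Tfam, which act on mitochondrial genes. Esrrg had 0.76, 1.35 and 2.44 CPM at 22 °C and 6.22, 6.34 and 7.40 CPM at 10 °C, and Esrra had 54.8, 55.6 and 43.0 against 99.3, 79.2 and 84.6 CPM. Prdm16, the factor that drives brown and beige fate, had 25.2, 21.4 and 18.3 CPM at 22 °C and 20.2, 17.6 and 20.1 CPM at 10 °C, and its difference of -0.16 ± 0.16 did not pass the test (adjusted p = 0.524). Klf11, a Kruppel-like factor, had 33.4, 35.5 and 31 CPM at 22 °C and 21.4, 16.6 and 15.5 CPM at 10 °C (-0.90 ± 0.16, adjusted p = 0.0218).

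None of 13 tested surface and lineage markers of beige cells was called in either direction in edgeR's quasi-likelihood fit or with DESeq2. Without 22 °C replicate 3 it called 1 higher and without 10 °C replicate 1 it called 1 lower. At an unadjusted p under 0.05 there were 4, and 2 passed the limits of the study, 1 in each direction. Tmem26, a marker of beige adipocytes, had 9.56, 3.83 and 4.16 CPM at 22 °C and 4.56, 5.26 and 3.33 CPM at 10 °C. Tbx1, another, had 2.87, 2.98 and 3.03 CPM against 4.89, 4.68 and 4.00 CPM. The groups overlapped in Tmem26 and were apart in Tbx1, whose log2 fold change of 0.61 ± 0.23 did not pass the adjusted test (adjusted p = 0.139).

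Most genes of mitochondrial respiration rose. Of 36 nuclear-encoded subunits of complex I tested, which takes electrons from NADH, 32 were called higher and none lower (2 without 10 °C replicate 3, 35 without 22 °C replicate 3). All 36 groups were apart, against 16.4% of all genes in that direction, and the median log2 fold change was 0.88. The summed level of complex I was 3665, 3673 and 3911 CPM at 22 °C and 7132, 6862 and 6914 CPM at 10 °C. Complexes II and III had 12 of 13 genes higher (median 1.18), complex IV with cytochrome c 12 of 16 (median 1.0) and ATP synthase 7 of 16 (median 0.69). Without 10 °C replicate 3 these counts were 3, 3 and 0, and without 22 °C replicate 3 they were 12, 14 and 11.

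The subunits given here are among those with the smallest p in their lists, a choice that favours a low spread within groups. Ndufs8, a subunit of complex I, had 70.9, 70.1 and 73.5 CPM at 22 °C and 151, 150 and 143 CPM at 10 °C (1.05 ± 0.10, adjusted p = 0.00417). Uqcrq, a subunit of complex III, had 96.7, 89.5 and 92.7 CPM at 22 °C and 232, 233 and 234 CPM at 10 °C. Sdhd, a membrane anchor of complex II, had 143, 139 and 143 CPM against 384, 333 and 361 CPM, and its promoter is among those shown. Cycs, cytochrome c, rose more, from 10.5, 9.22 and 14.4 CPM to 43.9, 51.7 and 44.0 CPM (2.03 ± 0.19).

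Upstream of the respiratory chain, 18 of 27 genes of pyruvate entry and the TCA cycle were called higher and none lower, with a median of 1.03 (6 without 10 °C replicate 3, 18 without 22 °C replicate 3). Mpc1 and Mpc2 form the mitochondrial pyruvate carrier, and Mpc1 had 25.3, 24.5 and 23 CPM at 22 °C and 70.3, 85.4 and 80.8 CPM at 10 °C. Sucla2, a subunit of succinyl-CoA synthetase, had 192, 192 and 219 CPM against 660, 688 and 685 CPM. Pdk4, a kinase that inhibits pyruvate dehydrogenase, rose within the same list, with 123, 88.9 and 105 CPM at 22 °C and 303, 392 and 381 CPM at 10 °C (1.76 ± 0.17, adjusted p = 0.00528). In mitochondrial fatty acid oxidation, 14 of 24 genes were called higher and 1, Cpt1a, lower (4 and 0 without 10 °C replicate 3, 17 and 1 without 22 °C replicate 3). Slc25a20, which carries acylcarnitine into the matrix, had 95.0, 94.8 and 84.1 CPM at 22 °C and 315, 312 and 312 CPM at 10 °C. The peroxisomal list moved less, with 2 of 21 tested genes called higher, Acaa1b (2.15) and Abcd3 (1.0), and 1 and 5 without the same 2 libraries. With 4.61% of all genes tested called higher, a list of this length may hold a call at that share.

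Proteins that build mitochondria were examined as families by gene name, a choice made after their values were seen. Of 78 mitochondrial ribosomal proteins 25 were called higher and none lower (median 0.46), and of 23 tested proteins of mitochondrial import 8 were called higher (median 0.51). Cytosolic ribosomal proteins had 1 of 77 tested members called, with a median of 0.24. The share called higher over all genes tested was 4.61%. Without 10 °C replicate 3 the 3 families had 1, 0 and 0 members called higher, and without 22 °C replicate 3 they had 47, 15 and 24.

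**Figure D3:**
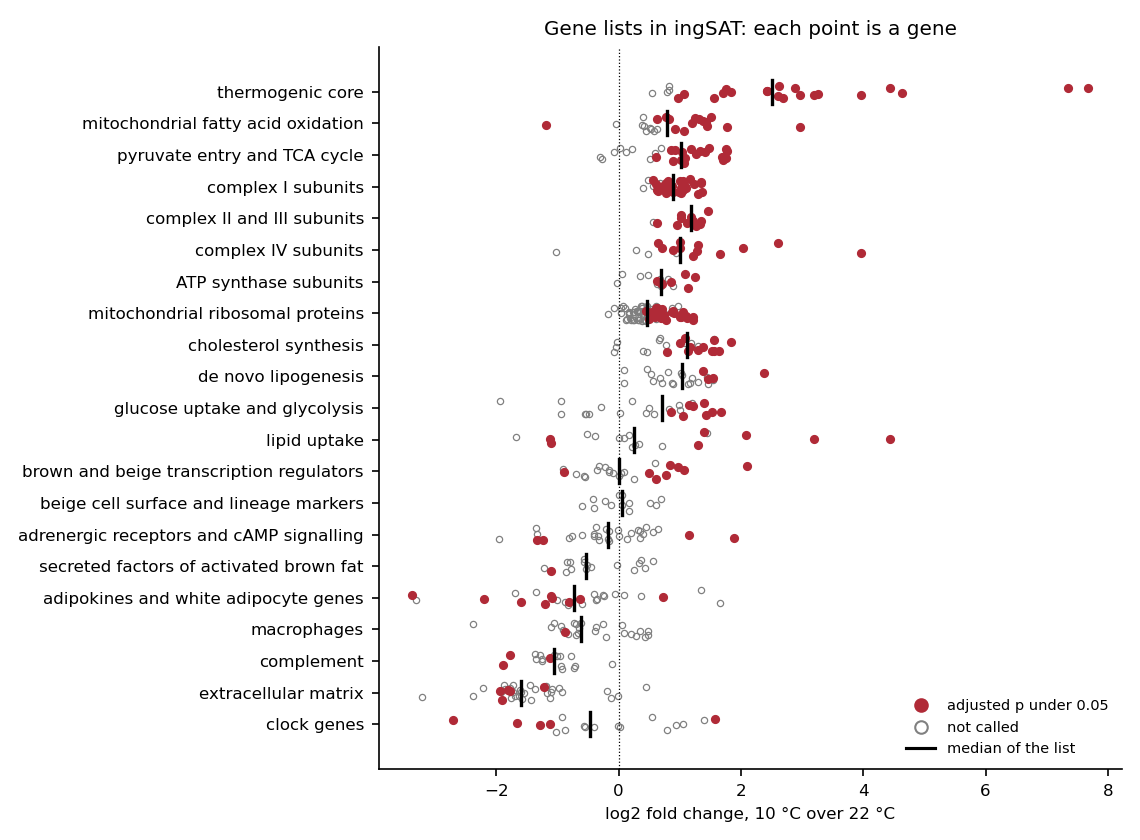
Log2 fold change, 10 °C over 22 °C, of each tested gene in 21 lists. Red points have an adjusted p under 0.05, open points do not, and the black bar is the median of the list. The medians run from 2.51 in the thermogenic core to -1.59 in the extracellular matrix list, and all 36 points of complex I lie above 0.

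Genes of fat and cholesterol synthesis were called higher in part. All 23 genes of de novo lipogenesis had positive log2 fold changes (median 1.04), of which 4 were called and 16 passed the limits of the study. The 4 called were Mlxipl, the glucose-sensing factor ChREBP, Thrsp, Pnpla3 and Elovl6 (0 without 10 °C replicate 3, 8 without 22 °C replicate 3). Mlxipl had 112, 117 and 94.0 CPM at 22 °C and 361, 245 and 279 CPM at 10 °C (1.45 ± 0.18, adjusted p = 0.00839). Elovl6, which lengthens palmitate to stearate, had 403, 374 and 104 CPM at 22 °C and 1853, 1463 and 1258 CPM at 10 °C. Fasn, fatty acid synthase, had 22110, 20050 and 4184 CPM at 22 °C and 30440, 17290 and 18890 CPM at 10 °C, and the groups overlapped (0.52 ± 0.60, adjusted p = 0.596). The control library with the low Fasn is 22 °C replicate 3, in which Acly was also low, at 494 CPM beside 2976 and 2266 CPM in the other controls, a gene picked after its values were seen.

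Of 24 genes in the cholesterol synthesis list, 12 were called higher and none lower, with a median of 1.11 (0 without 10 °C replicate 3, 15 without 22 °C replicate 3). The summed level of the list was 1437, 1053 and 904 CPM at 22 °C and 3534, 2416 and 2666 CPM at 10 °C. Without 10 °C replicate 1, the library with the ileum trace, 3 of its genes were called higher. In de novo lipogenesis 1 was called without that library. Sc5d, an enzyme of the last steps of the pathway, had 143, 141 and 154 CPM at 22 °C and 567, 329 and 402 CPM at 10 °C. In the list of glucose uptake and glycolysis, 8 of 24 genes were called higher (1 without 10 °C replicate 3, 11 without 22 °C replicate 3). Among them were Ldhb (1.22), Pgam1 (1.40), Gpd2 (1.67) and Pfkl (1.43).

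Genes of triglyceride handling were called in both directions. In triglyceride synthesis 3 of 16 genes were higher and 1 lower. Without 10 °C replicate 3 the counts were 1 and 0, and without 22 °C replicate 3 they were 3 and 2. In lipolysis and lipid droplets 2 of 17 were higher and 2 lower (2 and 0, and 4 and 2, without the same 2 libraries). Beside these lists and that of lipid uptake stand 4.61% higher and 2.90% lower over all genes tested. Pck1, an enzyme on the route from pyruvate to glycerol 3-phosphate in fat, fell from 4268, 3143 and 3295 CPM to 1440, 1404 and 1439 CPM (-1.32 ± 0.19, adjusted p = 0.0135). Gk, which makes glycerol 3-phosphate from glycerol, rose as given above. Gpd1, which makes glycerol 3-phosphate from a glycolytic intermediate, rose too (1545, 1553 and 726 CPM at 22 °C, 3994, 3584 and 3445 CPM at 10 °C). Among lipid droplet coats, Plin5, common in oxidative tissues, rose from 18, 19.4 and 15.3 CPM to 58.0, 60.9 and 58.4 CPM. Plin4, a coat of white adipocytes, fell from 3050, 3637 and 3737 CPM to 1798, 1349 and 1518 CPM. Gk and Plin5 were called in all 6 fits that left out a library, Pck1 in 4, Plin4 in 2 and Gpd1 in 1. In lipid uptake 5 of 18 genes were called higher and 2 lower, the latter being Angptl4 and Apoe (2 and 0 without 10 °C replicate 3, 7 and 4 without 22 °C replicate 3). Angptl4, an inhibitor of lipoprotein lipase, had 647, 536 and 415 CPM at 22 °C and 299, 229 and 215 CPM at 10 °C (-1.10 ± 0.21, adjusted p = 0.0295). Angptl8, another protein that acts on this lipase, rose from 15.8, 10.2 and 10.2 CPM to 52.1, 36.4 and 64.3 CPM.

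Signalling genes were called in both directions. Of 30 tested adrenergic and cyclic AMP genes, 2 were higher and 2 lower (0 and 0 without 10 °C replicate 3, 5 and 8 without 22 °C replicate 3). Over all genes tested, 4.61% were called higher and 2.90% lower. Adra1a, the alpha-1A adrenergic receptor, had 24.9, 26.2 and 21 CPM at 22 °C and 51.3, 53.4 and 55.2 CPM at 10 °C (1.15 ± 0.12, adjusted p = 0.00662). Adra1d, the alpha-1D receptor, went down, with 10.4, 13.9 and 9.30 CPM at 22 °C and 5.30, 4.03 and 4.96 CPM at 10 °C. Adrb3, the beta-3 receptor of adipocytes, had 624, 929 and 618 CPM at 22 °C and 739, 550 and 650 CPM at 10 °C, and the groups overlapped (-0.16 ± 0.21, adjusted p = 0.645). Adcy5, an adenylate cyclase, had 314, 332 and 259 CPM at 22 °C and 131, 113 and 113 CPM at 10 °C (-1.34 ± 0.14). Rgs2, which limits signalling through G proteins, rose from 41.5, 25.4 and 40.0 CPM to 174, 113 and 108 CPM (1.88 ± 0.26).

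Genes of white adipocytes and their secreted products were more often lower. Of 26 tested adipokines and white adipocyte genes, 8 were called lower and 1, Nampt, higher, with a median of -0.73 (0 and 0 without 10 °C replicate 3, 9 and 2 without 22 °C replicate 3). Among all genes tested 2.90% were called lower and 4.61% higher. Nnat (neuronatin, ENSMUSG00000067786, chr2:157560078-157562522, plus strand) fell the most of all called genes. It had 519, 658 and 1759 CPM at 22 °C and 111, 78.1 and 94.2 CPM at 10 °C, a log2 fold change of -3.37 ± 0.49 (adjusted p = 0.0135), and it was highest in 22 °C replicate 3. Agt, angiotensinogen, had 32.8, 54.1 and 36.7 CPM against 10.9, 8.71 and 7.18 CPM. Cavin1, a coat protein of caveolae, had 957, 986 and 843 CPM against 472, 333 and 398 CPM (-1.21 ± 0.17), and Slc7a10, an amino acid carrier of white adipocytes, had 187, 260 and 201 CPM against 117, 90.7 and 93.3 CPM.

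The best-known adipokines did not pass the test. Adipoq (adiponectin) had 3226, 3447 and 4639 CPM at 22 °C and 3682, 2415 and 2778 CPM at 10 °C. Lep (leptin) had 181, 534 and 967 CPM at 22 °C and 497, 234 and 377 CPM at 10 °C. Both overlapped, and Lep varied more within the controls than between the means, with a log2 fold change of -0.60 ± 0.57 (adjusted p = 0.513). Retn (resistin) had 916, 854 and 907 CPM at 22 °C and 1375, 1048 and 1043 CPM at 10 °C, groups that were apart by 0.37 ± 0.17 on the log2 scale (adjusted p = 0.203). Of 17 tested factors that activated brown fat secretes, Angptl4 alone was called, lower, and the median was -0.53. With 2.90% of all genes tested called lower, a list this short may hold 1 such call. None was called without 10 °C replicate 3, 6 were lower without 22 °C replicate 3, and DESeq2 called 2 lower and 1 higher. Bmp8b had 0.86, 0.28 and 1.32 CPM at 22 °C and 0.91, 2.09 and 0.67 CPM at 10 °C. Fgf21 was below the filter, with 0 to 4 reads at 22 °C and 5 to 9 reads at 10 °C.

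The extracellular matrix had the lowest median of the pathway lists, -1.59, and depended on 1 control library. Of 35 genes, 34 had negative log2 fold changes and 28 passed the limits of the study in that direction, but 5 were called lower: Thbs1, Thbs2, Col18a1, Bgn and Sparc (0 without 10 °C replicate 3, 30 without 22 °C replicate 3). The summed level was 45092, 31846 and 11974 CPM at 22 °C and 13238, 7518 and 9152 CPM at 10 °C, so 22 °C replicate 3 lay within the range of the cold libraries. Col1a1, picked after its values were seen, had 4338, 2375 and 317 CPM at 22 °C and 338, 184 and 235 CPM at 10 °C (-3.21, adjusted p = 0.0641). Thbs1, thrombospondin 1, was apart in every library, with 55.0, 30.2 and 54.2 CPM at 22 °C and 12.8, 13.3 and 11.3 CPM at 10 °C (-1.90 ± 0.25, adjusted p = 0.00941). Bgn, the proteoglycan biglycan, had 194, 138 and 66.7 CPM at 22 °C and 42.5, 28.4 and 32.9 CPM at 10 °C (-1.94 ± 0.38, adjusted p = 0.0308).

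Complement genes were lower, by 3 calls of 17 and more under other tests. Lists of fibroblasts, vessels and immune cells gave 1 call or none each. Over all genes tested 2.90% were called lower, and lists this short may hold 1 call or none at that share. Zfp423, a zinc finger factor of adipocyte progenitors, was the 1 called gene of 18 tested in the list of progenitors and fibroblasts, with 53.4, 64.6 and 48.6 CPM at 22 °C and 26.9, 25.7 and 29.5 CPM at 10 °C (-1.02 ± 0.14, adjusted p = 0.0114). Lyve1 (-0.88) was the 1 called of 25 tested macrophage genes. Complement had 3 of 17 lower, C2, C4b and Cfb, with a median of -1.06, and C2 had 251, 326 and 199 CPM at 22 °C and 94.0, 68.5 and 63.6 CPM at 10 °C. All 17 complement genes had negative log2 fold changes, and 13 were called by DESeq2 and 8 with library size only. The groups did not overlap for 10, against 16.4% of all genes in that direction. The limits of the study were passed by 15, against 9.14% of all genes in that direction. Without 22 °C replicate 3 these 3 lists had 9, 8 and 14 members lower, and without 10 °C replicate 3 none. None of 22 endothelial genes, 11 genes of MHC class II and 21 interferon-stimulated genes was called in edgeR's quasi-likelihood fit. DESeq2 called 2 endothelial genes higher and 4 lower, 3 genes of MHC class II lower and 1 interferon-stimulated gene lower, and without 22 °C replicate 3 the quasi-likelihood fit called 12 endothelial genes, 3 of MHC class II and 2 interferon-stimulated genes lower and 1 endothelial gene higher. At an unadjusted p under 0.05 the 3 lists had 8, 3 and 3 members in either direction.

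**Figure D4:**
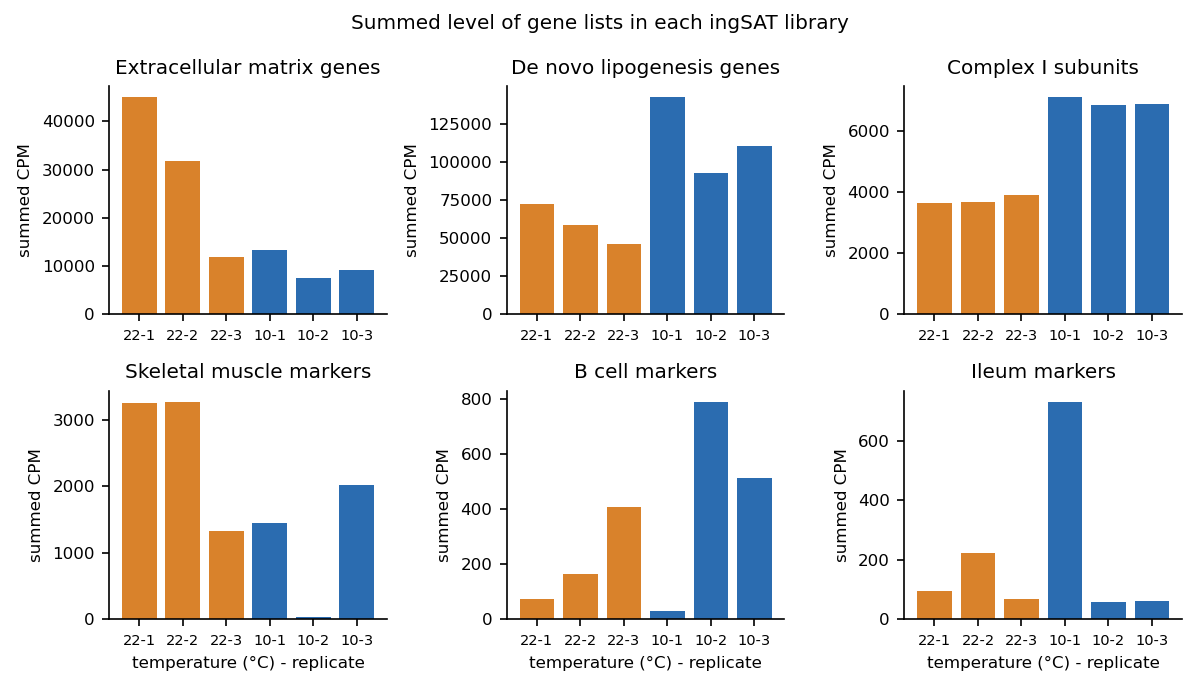
Summed CPM of 6 gene lists in each ingSAT library, 22 °C replicates 1 to 3 in orange and 10 °C replicates 1 to 3 in blue, 1 bar a library. Complex I separates the groups (3665 to 3911 CPM against 6862 to 7132 CPM). For extracellular matrix genes 22 °C replicate 3 (11974 CPM) lies among the cold libraries, and the muscle, B cell and ileum markers vary within groups.

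Other called genes fell outside these programmes. Of 18 clock genes, 4 were called lower and 1 higher (0 and 0 without 10 °C replicate 3, 4 and 2 without 22 °C replicate 3). Among all genes tested 2.90% were called lower and 4.61% higher, and the 1 higher call lies near that share. Dbp, an output factor of the clock, had 19.8, 80.8 and 56.9 CPM at 22 °C and 8.37, 6.84 and 8.88 CPM at 10 °C (-2.71 ± 0.48, adjusted p = 0.0238). Nr1d1, the repressor REV-ERB alpha, had 86.5, 103 and 94.0 CPM against 44.6, 18 and 27.5 CPM. Per3 and Tef were the other two that fell, and Cry1 rose, with 7.36, 8.16 and 7.26 CPM at 22 °C and 23.5, 19.5 and 24.9 CPM at 10 °C (1.58 ± 0.16). The labels used here give no hour of sampling, and a difference in hour cannot be told apart from temperature. Of 15 chaperones and cold-inducible proteins 5 were called higher (0 and 7 without the same 2 libraries), against 4.61% of all genes tested. They included Hsp90aa1 (0.95) and the mitochondrial pair Hspe1 (1.10) and Hspd1 (0.57).

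Among the 8 largest rises were also Kng2, Pitx3, Gm10032 and Ttc25. Kng2, a kininogen gene, had 0, 2 and 3 reads at 22 °C and 98, 169 and 102 reads at 10 °C (adjusted p = 0.00417), and Pitx3, a homeobox factor, had 0, 2 and 0 reads against 24, 46 and 24 (adjusted p = 0.016). With so few reads in the controls the size of both rises is poorly set. Pitx3 (chr19:46135685-46148326, minus strand) overlaps the end of Elovl3 (chr19:46131897-46135694, plus strand). A part of Elovl3 reads in the count of Pitx3 was not tested. Ttc25 had 3.54, 3.90 and 1.25 CPM at 22 °C and 41.4, 62.5 and 38.9 CPM at 10 °C, and Gm10032 had 0.96, 0.28 and 0.07 CPM against 6.30, 10.1 and 7.11 CPM. After Nnat and Dbp, the largest falls were those of Rprml (-2.69), Sntg2 (-2.51), Klf14 (-2.39), Olfr539 (-2.32), Mt2 (-2.26) and Agt (-2.20). Mt2, a metallothionein, had 12.0, 14.1 and 19.8 CPM at 22 °C and 3.15, 2.02 and 4.44 CPM at 10 °C, and Klf14 never exceeded 2.84 CPM.

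The study worked with a thermogenic list, joined from earlier literature and Gene Ontology, and a list of fatty acid genes from Gene Ontology. Of 142 tested thermogenic genes, 38 were called higher and 4 lower (9 and 0 without 10 °C replicate 3, 46 and 12 without 22 °C replicate 3), with a median of 0.15. Of 238 tested fatty acid genes, 33 were called higher and 9 lower (9 and 0, and 55 and 22, without the same 2 libraries), with a median of 0.17. Over all genes tested, 4.61% were called higher and 2.90% lower, and the lower calls of both lists lie near that share.

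Against iBAT, the test of the difference between the depots' responses called 313 of 13631 genes with a larger log2 fold change in ingSAT (2.30%) and 171 with a smaller one (1.25%). In the thermogenic core, 20 of 24 genes were larger and 1 smaller, but that list was chosen with earlier results of these data known. The study's own thermogenic list had 27 larger and 2 smaller of 140. The levels, on a scaling shared by both depots, show where each started. Ucp1 rose from 7.21 ± 5.78 to 1177 ± 203 CPM in ingSAT (SD, n = 3) and had 6738 ± 2471 CPM in iBAT at 22 °C and 12360 ± 2200 CPM at 10 °C. The cold ingSAT level was 17.5% of that in iBAT at 22 °C, and the log2 fold changes were 7.38 and 0.87, a difference of 6.50 ± 0.71 (adjusted p = 0.000798). Cidea had a log2 fold change of -0.03 in iBAT and differed by 2.74 ± 0.30, and its cold ingSAT level was 17.6% of the iBAT level at 22 °C. Elovl3 rose in both depots (7.71 and 3.52), and at 10 °C ingSAT reached 123 ± 22.4 CPM and iBAT 866 ± 33.7 CPM.

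Dio2 and Ppargc1a had opposite signs in the 2 depots. Dio2 changed by 3.31 in ingSAT and by -0.96 in iBAT, a difference of 4.27 ± 0.62 (adjusted p = 0.00484), and Ppargc1a by 0.99 and -0.90, a difference of 1.90 ± 0.38 (adjusted p = 0.0219), though neither value in iBAT passed the test by itself. The differences were 3.38 for Cox7a1, 2.48 for Cox8b and 3.23 for Cpt1b. Sorl1 was the thermogenic gene with the smaller response in ingSAT (0.86 against 2.61). Of the respiratory chain, 15 of 36 genes of complex I, 10 of 13 of complexes II and III, 9 of 16 of complex IV and 3 of 16 of ATP synthase responded more in ingSAT, and none less. In the extracellular matrix 3 of 34 tested genes differed, all with the smaller value in ingSAT (Bgn, Col18a1 and Sparc), and none of 23 genes of de novo lipogenesis differed. Without ingSAT 10 °C replicate 3 the counts over all genes were 107 larger and 33 smaller, without ingSAT 22 °C replicate 3 they were 1212 and 1044, and of the iBAT libraries, leaving out 10 °C replicate 3 gave the fewest larger (129) and leaving out 22 °C replicate 2 the fewest smaller (49).

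Bmp8b, a secreted factor of brown fat, responded in iBAT (0.50 ± 0.23 to 15.5 ± 6.82 CPM) and stayed near 1 CPM in ingSAT, a difference of -4.30 ± 0.84 (adjusted p = 0.02). Hcn2, an ion channel, had 1.79 CPM in iBAT at 22 °C and 22.7 CPM at 10 °C, against 1.82 and 2.46 CPM in ingSAT (-3.20 ± 0.33, adjusted p = 0.000723). The other large negative differences were those of Adgrg2 (-2.41), Mlph (-2.84), Abcc8 (-3.56) and Rspo4 (-6.44). Rspo4 had 0.26 CPM in ingSAT at 22 °C and 0.04 CPM at 10 °C, so the size of its difference is poorly set. The 6 largest positive differences, Cps1, Fabp1, Cyp3a11, Mup7, Serpina1e and Alb, are genes of liver, and all 6 were lower in iBAT at 10 °C at an adjusted p under 0.05. Fabp1 and Cyp3a11 had 0 CPM in iBAT at 10 °C, so the fitted size of their differences depends on the prior count. Cps1, Mup7 and Serpina1e had 0.026, 0.019 and 0.026 CPM there, so the size of their differences is poorly set too. Alb, albumin, had 38.1, 48.6 and 71.5 CPM in the iBAT libraries at 22 °C and 0.39, 0.47 and 0 CPM at 10 °C, while ingSAT held 39.0 CPM at 22 °C and 41.1 CPM at 10 °C. The log2 fold changes of these 6 in ingSAT ran from 0.07 (Alb) to 2.41 (Mup7). A role in them of liver RNA, or of the ileum trace in ingSAT 10 °C replicate 1, was not tested.

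**Figure D5:**
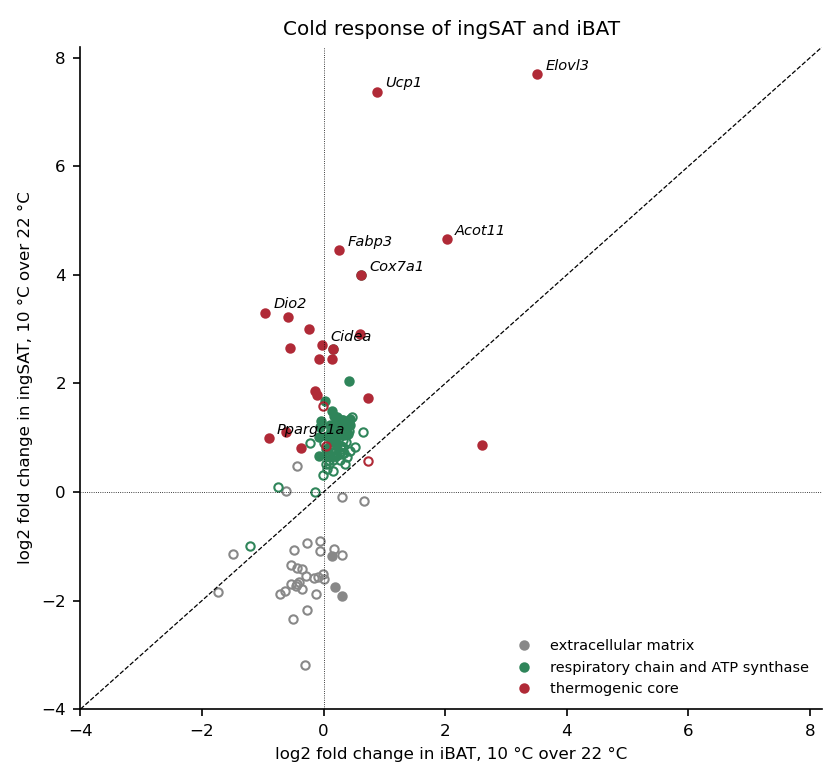
Log2 fold change, 10 °C over 22 °C, in iBAT (x axis) against ingSAT (y axis) for genes of the thermogenic core (red), the respiratory chain and ATP synthase (green) and the extracellular matrix (grey). Filled points differ between depots at an adjusted p under 0.05, and the dashed line marks equal responses. Ucp1 lies at 0.87 in iBAT and 7.38 in ingSAT, and nearly all green points lie above the line.

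Against pgVAT, no gene of 14793 passed the adjusted test of the difference in either direction (0% and 0%), although 1536 had an unadjusted p under 0.05. Markers of neighbouring tissue varied between the pgVAT libraries. The sum of 10 epididymis markers was 2901, 986 and 711 CPM at 22 °C and 22149, 4.19 and 23875 CPM at 10 °C, and 7 tested epidermis markers summed to 39.8 to 70.8 CPM at 22 °C and to 165, 15.8 and 404 CPM at 10 °C. In ingSAT, 9 of the 10 epididymis markers were at 0 in every library. The part of these tissues in the comparison was not tested. Ucp1 had 1.18, 3.64 and 306 CPM in pgVAT at 22 °C and 8.17, 2.91 and 4.72 CPM at 10 °C, so pgVAT 22 °C replicate 3 stood apart, and the difference of 11.6 ± 2.4 (SE) had an adjusted p of 0.369. Cox7a1 showed the same library, with 2.08, 4.59 and 29.8 CPM at 22 °C and 4.28, 2.70 and 3.27 CPM at 10 °C. None of the 3 cold pgVAT libraries reached the lowest cold ingSAT level of either gene. Without pgVAT 10 °C replicate 2, the library with 4.19 CPM of epididymis markers, the test called 246 genes with a larger and 631 with a smaller response in ingSAT, and leaving out any other single library left both counts at 0.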

How the data were processed

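Bulk RNA-seq of ingSAT was analysed in 6 libraries, 3 at 10 °C and 3 at 22 °C, each pooled from 2 mice, with 6 libraries each of iBAT and pgVAT for the tests of difference. The authors aligned reads to mm10 and deposited raw counts per gene without scaling. The submitters' processing notes name STAR 2.5.3a, Picard 1.141 and HTSeq 0.6p1, while the paper's methods name other versions of STAR and HTSeq. Neither step was repeated here. The other deposited tables (tissues at 34 °C with quadriceps, bone marrow and spinal cord) were not used. Groups come from the labels CE and RT. The treatment protocol in the labels names 34 °C for every sample, so CE and RT were read as 10 °C and 22 °C from the methods. Of 21647 gene identifiers 21583 were matched to symbols, and coordinates are those of GENCODE M21 on GRCm38.

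Counts were scaled with TMM and tested with edgeR 4.0.16 in R 4.3.3 (glmQLFit and glmQLFTest, two-sided, average log2 CPM above 0, adjusted p under 0.05 by Benjamini-Hochberg over all genes). CPM values use TMM-scaled library sizes and so are levels relative to the whole library, not per length, and log2 fold changes use edgeR's default prior count. The SE given with a log2 fold change was derived from the test. It is the absolute log2 fold change divided by the square root of the F statistic. Differences between depots are interaction terms over 12 libraries, which are treated as independent though the depots may come from the same mice. For these differences the replicate block takes libraries of both depots with the same temperature and replicate number as 1 pool. Alternatives were edgeR's exact test (the authors' test), DESeq2 1.42.0, library size only, DESeq2's size factors (RLE), filterByExpr, more than 1 count, removal of 1733 ileum-enriched genes (over 20 times higher in ileum), the replicate block and leaving out each library. Genes named are 17 anchors for cold fat, the 8 largest rises and falls called with groups apart, up to 4 members of each list with the smallest p, and the 6 largest differences each way. The members and lists were chosen with earlier results of these data known. Scripts were tested on simulated data. Promoters were matched by symbol in a RefSeq table, and figures were drawn with matplotlib 3.10.9.

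Depth was 10960682 to 14442801 counts a library. Reads carry no molecular identifiers, so p-values rest on the spread between pools. The result of 1 named gene is not reported here.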

Additional observations from a re-analysis of the deposited data

Results flagged for a closer look

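The cold response differed between ingSAT and iBAT, by an interaction test with edgeR adjusted p under 0.05, for 20 of the genes named here or among the anchors. The values are the log2 fold change in ingSAT minus that in iBAT. Larger in ingSAT were Cps1 (10.05), Fabp1 (9.85), Cyp3a11 (9.76), Mup7 (8.42), Serpina1e (7.77) and Alb (7.53), liver genes that were lower in iBAT at 10 °C. Fabp1 and Cyp3a11 had 0 CPM there, so the size of both depends on the prior count. Cps1, Mup7 and Serpina1e had 0.026, 0.019 and 0.026 CPM there, and their sizes are poorly set too. Also larger were Ucp1 (6.50), Dio2 (4.27), Elovl3 (4.19), Cox7a1 (3.38), Cpt1b (3.23), Cidea (2.74), Cox8b (2.48) and Ppargc1a (1.90). Smaller in ingSAT were Adgrg2 (-2.41), Mlph (-2.84), Hcn2 (-3.20), Abcc8 (-3.56), Bmp8b (-4.30) and Rspo4 (-6.44). The size for Rspo4 is poorly set, at 0.26 and 0.04 CPM in ingSAT at 22 and 10 °C.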

How the results depend on the processing

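The counts of genes called at 10 °C moved more than the values of single genes. Higher and lower genes numbered 644 and 406, against 1140 and 1130 with DESeq2, 919 and 936 with edgeR's exact test, 611 and 617 with library size only, 315 and 137 with the replicate block, and 1007 and 1278 at the limits of the study. Leaving out 1 library gave 53 to 2050 higher and 4 to 1749 lower. Filtering, RLE size factors and removal of ileum-enriched genes kept both counts within 1.5 times. For the difference from iBAT, 313 larger and 171 smaller became 66 and 30 with the replicate block, and 107 to 1212 and 33 to 1044 without 1 library. For pgVAT, 0 and 0 became 0 to 246 and 0 to 631. Of the genes that were not called, Adrb3, Tmem26 and Lep changed sign: over the fits without 1 library Adrb3 ran from -0.27 to 0.057 (without 22 °C replicate 2), Tmem26 from -0.64 to 0.13 (without 22 °C replicate 1) and Lep from -1.02 to 0.077 (without 22 °C replicate 3). The cause of these shifts was not tested.

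Replicate numbers did not pair the libraries: deviations from the group means correlated at 0.144, -0.37 and 0.172 for numbers 1 to 3, and the labels name no shared cage or day. With 3 libraries a group, small changes are hard to call at this depth.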
